A study of Mus musculus with 22 samples.

Results

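The carboxylesterase genes Ces1c, Ces1d, Ces1e, Ces1f, Ces1g, Ces2a, Ces2c, Ces2e, Ces3a and Ces3b were followed through liver RNA of male C57BL/6 mice. The 10 genes were chosen by symbol from a table of 23909 gene symbols, all 10 were found, and all 10 were among the 12264 genes that passed the filter on low values. They were listed with earlier results of these data known and no measured threshold defines the list, so a count over them is a description. The 22 libraries fall into 5 groups, all labelled as fasted. GF_TAC (n = 5) and GF_JAX (n = 5) were germ-free mice given cecal material of Taconic or of Jackson mice, kept for 4 weeks and fasted for 16 h before the liver was taken. GF (n = 4) were mice kept free of microbes and given none, TAC (n = 4) were mice of the vendor Taconic and JAX (n = 4) were mice of the vendor Jackson. The animals' ages are not given in the labels. Recipients share the germ-free origin of GF mice and differ from TAC and JAX mice in origin as well as in microbes. TAC and JAX mice come from different vendors, so they may differ from each other in more than microbes.

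Carboxylesterases are serine hydrolases that cut ester, amide and thioester bonds. In liver they split ester drugs and environmental esters, and several also act on stored triacylglycerol and cholesteryl esters. Enzymes of the Ces1 branch prefer esters with a large acyl and a small alcohol group, and enzymes of the Ces2 branch prefer the opposite. Most of them stay in the lumen of the endoplasmic reticulum through a carboxyl-terminal retrieval signal of histidine, any residue, glutamate and leucine (HXEL), which receptors of the KDEL receptor family recognise. In mice, Ces1c is secreted and accounts for much of the esterase activity of blood plasma.

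The end of each coding sequence shows that signal at the level of codons, and it is given here because the members differ in it. Where the products go was not measured. The last 30 coding bases before the stop codon, from GENCODE M21 transcripts, are shown 5′ to 3′ on the coding strand with the last 12 in capitals.
Ces1c: acagaccctactgaacacACAGAACACAAA
Ces1d: aggccatcccacagggaaCATGTTGAGCTC
Ces1g: aggtcatcccatagggaaCATGTTGAACTG
Ces2a: aagggttctcaggacaagCATGCAGAGCTG
Ces2c: aaggcttctcaggacaagCACAGGGAGCTT
Ces2e: aaggggtctcaggagaggCACAAAGAGTTG
Ces3a: cagagaagcaggaaagttCCAGAGGAGCTC
Ces3b: cagagaagcaggaaagttCCAGAGGAGCTC
In 7 of the 10 members the capitals spell histidine, any residue, glutamate and leucine codons (Ces1d, Ces1e, Ces1f, Ces1g, Ces2a, Ces2c and Ces2e), and in Ces1c, Ces3a and Ces3b they do not.

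All members lie on mouse chromosome 8, the Ces1 genes side by side on the minus strand and the Ces2 and Ces3 genes side by side on the plus strand. Neighbours are close copies, which bears on how far their reads can be told apart. Ces3a and Ces3b share 95.3% of aligned coding bases and an identical run of 194 bases, coding bases 514 to 707 of Ces3a, and a read that lies wholly inside it cannot be assigned to 1 of them.
Ces3a and Ces3b, shared run: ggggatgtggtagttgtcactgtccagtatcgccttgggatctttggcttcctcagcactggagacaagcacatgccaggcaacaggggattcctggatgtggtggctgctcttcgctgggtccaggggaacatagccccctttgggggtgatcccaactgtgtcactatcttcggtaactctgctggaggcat
Of the 50-base windows of each transcript, 42.2% of Ces2c were found in other genes (most in the pseudogene Ces2d-ps), 30.9% of Ces3a and 26.1% of Ces3b (most in each other), 22.2% of Ces2a (most in Gm7208) and 17.0% of Ces1c (most in Ces1b). For Ces1d, Ces1e, Ces1f, Ces1g and Ces2e the share was at most 3.36%. The deposited levels of the first 5 genes are therefore uncertain, since it is not given how shared reads were counted.

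Levels were given by the authors as RPKM, the reads of a gene divided by its length and by the library's depth, which puts genes of different length on a per-length scale. The order below is that of the deposited values: the most abundant members lie nearer a limit on countable reads, described with the depth, and 5 members share sequence with other genes, so it is approximate. Over the 22 libraries Ces1c had the highest mean, 512 RPKM, followed by Ces3a with 409 RPKM, Ces1d with 344 RPKM, Ces2a with 305 RPKM and Ces1f with 240 RPKM. Ces3b averaged 195 RPKM, Ces1e 138 RPKM, Ces1g 135 RPKM, Ces2e 116 RPKM and Ces2c 26.3 RPKM. Ces1c was above Ces3a in 22 of 22 libraries, whereas Ces1e was above Ces1g in 10 of 22 and Ces1g above Ces2e in 12 of 22, so the order of these last 3 is not fixed. Ces2c, a triacylglycerol hydrolase of liver and gut, ranged most relative to its mean, with 12.2 to 55.4 RPKM and a spread of 45.7% of the mean. Ces1e, which holds beta-glucuronidase in the endoplasmic reticulum, ranged least relative to its mean, with 119 to 157 RPKM and a spread of 8.47% of the mean.

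**Figure D1:**
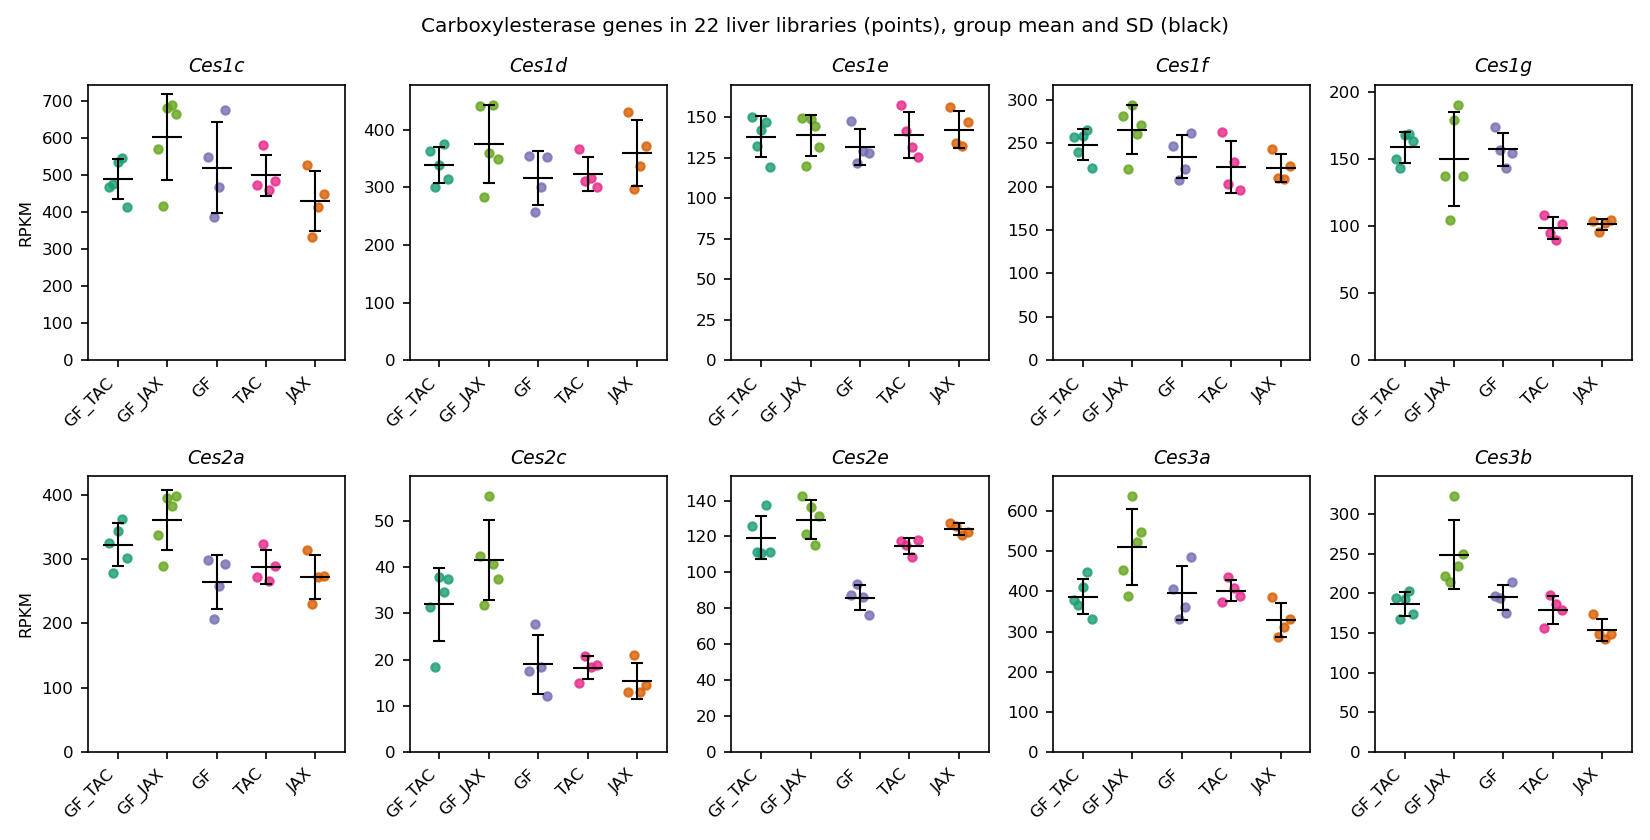
RPKM (vertical axes, each from 0) of the 10 carboxylesterase genes in each library (points), with the group mean and SD in black, for GF_TAC, GF_JAX, GF, TAC and JAX livers. Ces1g lay higher in the 3 groups of germ-free origin, Ces2e was lowest in GF livers, and Ces2c was highest in GF_JAX livers.

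Depth was read from the size of 1 read among low values and came to 1.33 to 3.75 M counted reads per library, lowest on average in GF_JAX and highest in JAX livers. Depth and library type differed between groups, which bears on comparisons of the members. Counted reads per kilobase levelled off for the most abundant liver mRNAs: Alb, the gene of serum albumin, had 1715 to 1897 counted reads per kilobase in libraries of all depths, close to the 2000 possible start positions per kilobase of both strands. Ces1c reached 56.8% of that ceiling on average, Ces3a 45.4% and Ces1d 39.3%, while Ces2e reached 13.5% and Ces2c 2.94%. The spread of Ces1c over libraries was 19.6% of its mean in RPKM and 11.3% in counted reads per kilobase, and that of Ces3a was 20.4% and 13.1%, so part of their RPKM moved with depth. Apart from this, long genes were favoured over short ones in all 4 TAC, all 4 JAX and 2 of 5 GF_JAX libraries (replicates 1 and 4), and the reverse held in the other 12. This library type therefore coincides with the group in comparisons of GF or GF_TAC with TAC or JAX livers, where type and group cannot be told apart by these groups alone. A term for type rests on GF_JAX, the group that holds both types, with 2 and 3 libraries. The slope of level on length is graded, from -0.199 in GF replicate 1 to 0.187 in GF_JAX replicate 4. It was nearly flat in GF replicate 2, at -0.008.

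**Figure D2:**
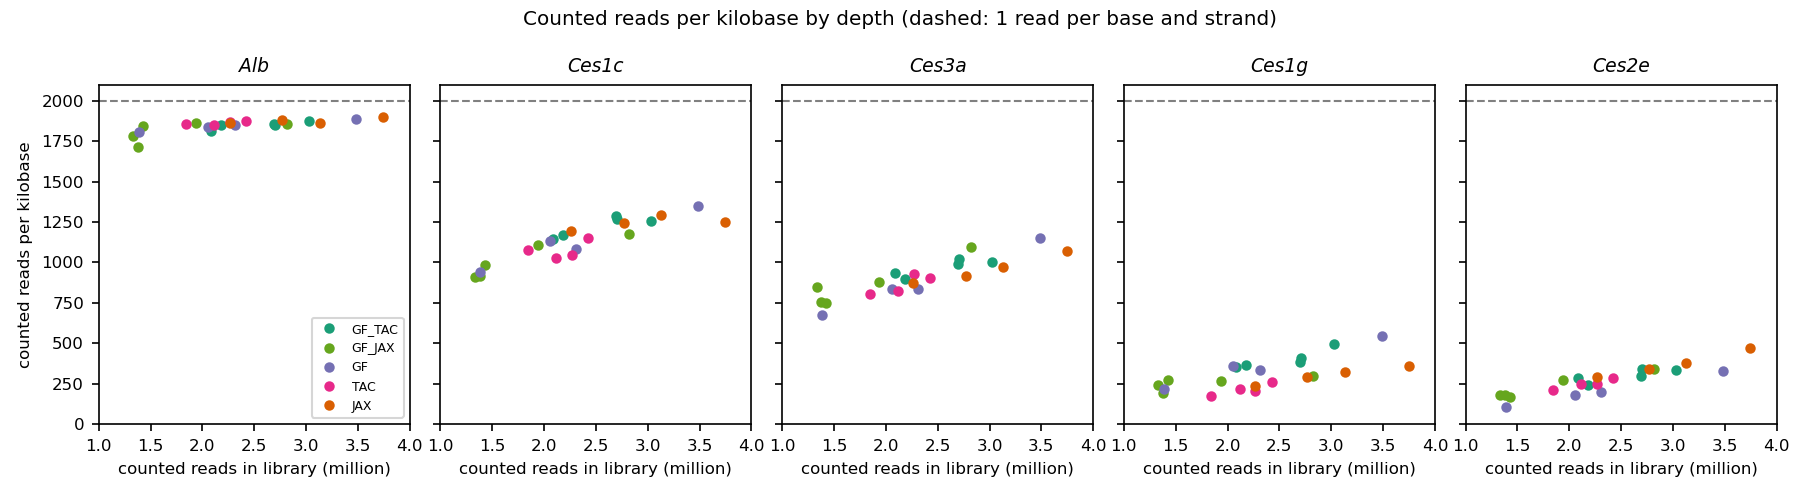
Counted reads per kilobase (vertical axis) against counted reads in the library (horizontal axis, M) for Alb and 4 of the members, each point 1 library coloured by group; the dashed line marks 2000 start positions per kilobase. Alb is flat near 1850, Ces1c and Ces3a bend, and Ces1g and Ces2e rise with depth.

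The tissue label was checked on marker genes. All 7 hepatocyte markers were found in every group, with a summed level of 2392 to 5501 RPKM per library. Kidney, another organ rich in carboxylesterases, had a summed level of 0 to 0.419 RPKM over 5 markers, and Umod, Slc12a1 and Kap were listed at 0 in every library. Of 6 gut epithelium markers found, only Alpi was listed at 0 in every library. Their summed level was 121 to 241 RPKM, beside 92.2 to 149 RPKM for 6 sinusoidal endothelium markers. As a set the gut markers were thus not absent, and which of them carried the sum was not examined. Markers of pancreas summed to 32.2 to 58.0 RPKM in GF_TAC, 21.2 to 76.4 in GF_JAX, 42.1 to 60.0 in GF, 19.5 to 24.5 in TAC and 12.3 to 19.1 RPKM in JAX livers. Stellate cell markers summed to 305 to 405 RPKM in GF_TAC, 253 to 377 in GF_JAX and 288 to 388 in GF livers, against 243 to 267 in TAC and 209 to 283 RPKM in JAX livers. For both pancreas and stellate cell markers, GF and GF_TAC libraries lay above all vendor libraries, as they did for Ces1g. Cholangiocyte markers summed to 55.4 to 73.5 RPKM in GF_TAC, 35.2 to 104 in GF_JAX and 48.8 to 61.1 in GF livers, against 33.1 to 45.6 in TAC and 40.8 to 56.0 RPKM in JAX livers. The part of these markers in the differences of Ces1g, Ces2e and Ces3b between GF and vendor livers was not tested. In bulk tissue, fewer cells of a type and less RNA per cell cannot be told apart.

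Germ-free livers differed from vendor livers most in Ces1g and Ces2e. Ces1g, which hydrolyses triacylglycerol and cholesteryl esters and whose loss in mice raises liver fat and blood lipids, had 174, 157, 144 and 155 RPKM in GF livers, against 109, 95.1, 89.9 and 102 RPKM in TAC livers and 104, 95.5, 102 and 105 RPKM in JAX livers. Every GF library lay above every vendor library. Ces1g was higher by 0.62 ± 0.13 (SE, log2 scale) in GF than in JAX livers (limma, adjusted p = 0.00274) and by 0.67 ± 0.13 in GF than in TAC livers (limma, adjusted p = 0.00204).

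Ces2e moved the other way. It had 87.5, 93.4, 86.5 and 76.5 RPKM in GF livers, against 117, 115, 109 and 118 RPKM in TAC livers and 128, 126, 121 and 123 RPKM in JAX livers. The GF libraries were all below the vendor libraries, with no overlap. The difference was -0.53 ± 0.08 for GF minus JAX (limma, adjusted p = 0.00029) and -0.42 ± 0.08 for GF minus TAC (limma, adjusted p = 0.00252). With library type as a term the difference of GF minus TAC was -0.43 with an adjusted p of 0.150 (limma), and that of GF minus JAX was -0.55 with an adjusted p of 0.0357 (limma). Over all alternatives the adjusted p of limma ran from 0.000253 to 0.150 for GF minus TAC and from 1.93e-05 to 0.0361 for GF minus JAX.

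Against JAX livers Ces3b also passed. It had 197, 195, 175 and 214 RPKM in GF livers, against 174, 149, 143 and 149 RPKM in JAX livers, and the lowest GF library was just above the highest JAX library. Its difference of 0.35 ± 0.11 (limma, adjusted p = 0.0325) dropped to 0.13 when libraries were rescaled to a common sum and to 0.17 with library type as a term (limma, adjusted p = 0.326 and 0.720). The rescaling moved the median of all genes to -0.17 in this comparison. Relative to the median Ces3b was at 0.31 after rescaling, beside 0.34 in the main fit. Its call also did not hold without JAX replicate 2, 3 or 4 or GF replicate 1 or 4, and its adjusted p ran from 0.0108 to 0.915 over all alternatives (limma). The members called therefore numbered 3 of 10 for GF minus JAX, where 24.0% of all genes tested were called, and 2 of 10 for GF minus TAC, where 24.3% were called. These shares lie near those of all genes. Ces1c, Ces1d, Ces1e, Ces1f, Ces2a, Ces2c and Ces3a had differences of -0.18 to 0.26 in GF minus JAX, and none passed.

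**Figure D3:**
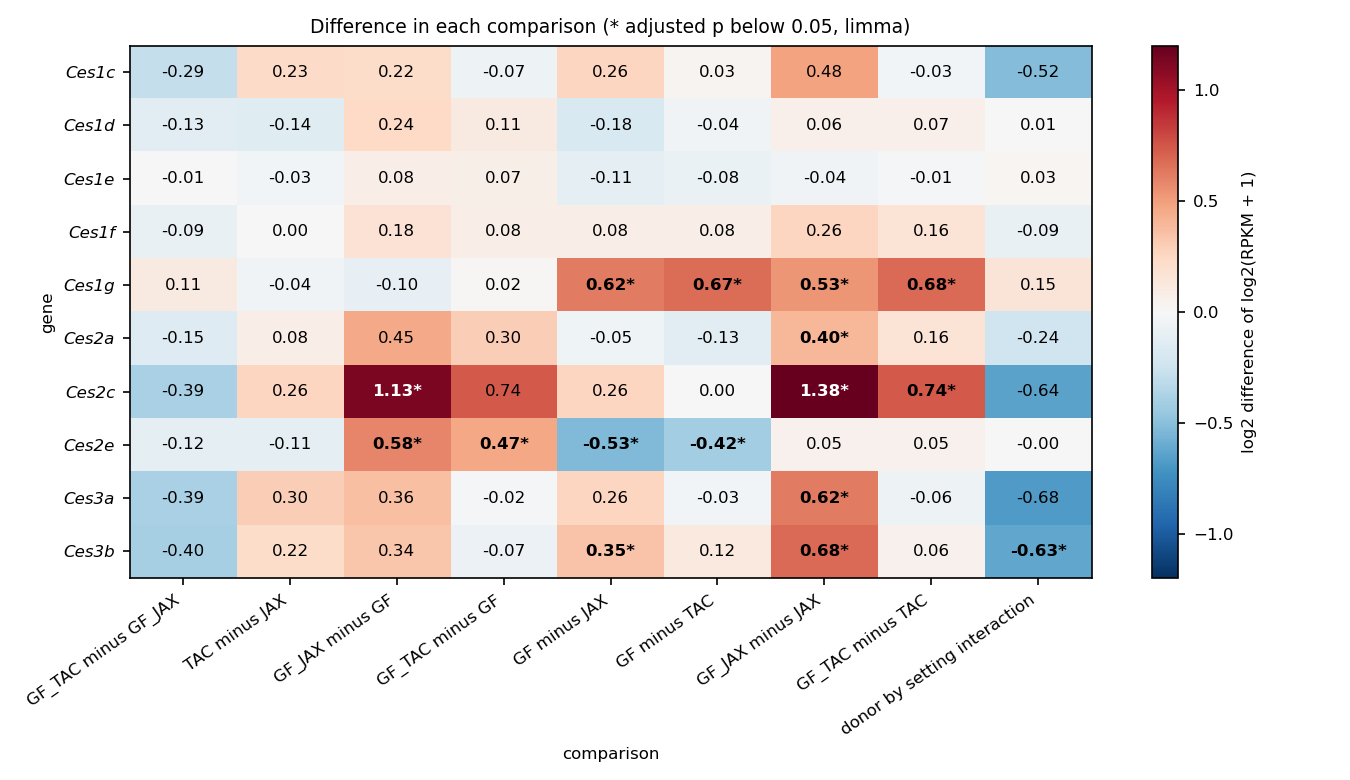
Log2 difference (colour and printed value) of the 10 genes (rows) in each comparison (columns), with an asterisk where the adjusted p of limma was below 0.05. Ces2e is negative in GF minus JAX (-0.53) and GF minus TAC (-0.42) and positive in GF_JAX minus GF (0.58) and GF_TAC minus GF (0.47), while Ces1g is positive in the 4 comparisons against vendor livers.

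Giving germ-free mice cecal material was followed by higher Ces2e and, with Jackson material, higher Ces2c. Ces2e had 142, 122, 136, 115 and 131 RPKM in GF_JAX livers and 126, 111, 111, 138 and 111 RPKM in GF_TAC livers, against the 76.5 to 93.4 RPKM of GF livers. All 10 recipient libraries lay above all 4 GF libraries. They ran from 111 to 142 RPKM, against 109 to 128 RPKM in vendor livers. GF_JAX replicates 1, 3 and 5 and GF_TAC replicate 4 lay above every vendor library. The differences were 0.58 ± 0.08 for GF_JAX minus GF (limma, adjusted p = 0.0018) and 0.47 ± 0.08 for GF_TAC minus GF (limma, adjusted p = 0.0129). Among libraries of 1 type, GF_JAX replicates 2, 3 and 5 had 122, 136 and 131 RPKM and were likewise above the GF libraries, and the fit without GF_JAX replicates 1 and 4 gave 0.59 (limma, adjusted p = 0.00298).

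Ces2c had 42.4, 31.8, 55.4, 40.6 and 37.6 RPKM in GF_JAX livers and 31.3, 18.5, 37.9, 34.7 and 37.5 RPKM in GF_TAC livers, against 17.5, 27.7, 18.4 and 12.2 RPKM in GF livers. The GF_JAX libraries were all above the GF libraries, whereas GF_TAC replicate 2 lay within their range. Ces2c was higher by 1.13 ± 0.22 in GF_JAX than in GF livers (limma, adjusted p = 0.0233), and its difference of 0.74 ± 0.22 in GF_TAC minus GF did not pass (limma, adjusted p = 0.259). The size was stable in GF_JAX minus GF under every alternative, 0.95 to 1.32, but the adjusted p ran from 0.00866 to 0.358 and the call held in 10 of 21. The call did not hold without GF replicate 1, 3 or 4 or without GF_JAX replicate 1 (limma, adjusted p = 0.1001, 0.0655, 0.0835 and 0.0574). The difference between the 2 recipient groups, -0.39 ± 0.20 for GF_TAC minus GF_JAX, did not pass either (limma, adjusted p = 0.412), so Ces2c is not shown to depend on the donor.

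Ces2a, the most abundant Ces2 member, had 337, 289, 394, 383 and 397 RPKM in GF_JAX livers and 325, 279, 344, 363 and 302 RPKM in GF_TAC livers, against 298, 207, 259 and 292 RPKM in GF livers. The ranges overlapped, with 1 GF_JAX and 1 GF_TAC library inside that of GF livers. Its differences of 0.45 ± 0.12 and 0.30 ± 0.12 did not pass (limma, adjusted p = 0.089 and 0.488). With relative depth as a term both passed, at 0.29 and 0.38 (limma, adjusted p = 0.0298 and 0.00336), and without GF_JAX replicate 2 GF_JAX minus GF passed at 0.53 (limma, adjusted p = 0.0353). Over all alternatives the adjusted p of limma ran from 0.0122 to 0.546 and from 0.00295 to 0.687. In all, 2 of 10 members were called higher in GF_JAX minus GF, where 0.612% of all genes tested were called, and 1 of 10 in GF_TAC minus GF, where 0.204% were called. These 2 comparisons share the GF libraries. When only the 2 groups compared were fitted, Ces2e no longer passed in GF_JAX minus GF or in GF_TAC minus GF (limma, adjusted p = 0.260 and 0.0915), and in the fit of all groups its call in GF_TAC minus GF did not hold without GF replicate 4 or GF_TAC replicate 1 (limma, adjusted p = 0.0670 and 0.0512). Over all alternatives it had an adjusted p of 0.000849 to 0.260 in GF_JAX minus GF and of 0.00134 to 0.0915 in GF_TAC minus GF (limma).

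No difference of Ces1g between recipients and germ-free mice was detected. It had 137, 105, 180, 191 and 138 RPKM in GF_JAX livers and 150, 143, 168, 169 and 164 RPKM in GF_TAC livers, against the 144 to 174 RPKM of GF livers, and the ranges overlapped. The differences were -0.10 ± 0.12 for GF_JAX minus GF and 0.02 ± 0.12 for GF_TAC minus GF (limma, adjusted p = 0.724 and 0.986). Against the vendor of the donor, Ces1g was higher by 0.53 ± 0.12 in GF_JAX than in JAX livers and by 0.68 ± 0.12 in GF_TAC than in TAC livers (limma, adjusted p = 0.00825 and 0.00121). GF_JAX replicates 1 and 4, which have the library type of JAX livers, were at 137 and 191 RPKM, above the 95.5 to 105 RPKM of JAX livers. Their relative depth was 0.856 and 0.630, below the 1 to 1.66 of JAX libraries. GF_JAX replicate 2, at a depth of 1.25, had 104.97 RPKM, just above the highest JAX library at 104.66 RPKM. Rescaled to a common sum it had 174, within the 171 to 182 of JAX livers. The call in GF_JAX minus JAX was lost with relative depth as a term, at 0.32 (limma, adjusted p = 0.236), and with type and depth together. It was also lost after rescaling to a common sum, at 0.32 (limma, adjusted p = 0.0568). That scaling moved the median of all genes to -0.21, and relative to it Ces1g was at 0.52. The call was lost too when only the 2 groups were fitted (limma, adjusted p = 0.0951), and its adjusted p was otherwise as low as 0.000452 (limma).

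The 2 comparisons of recipients with the donors' vendor were added after the data had been seen. In GF_JAX minus JAX, 5 of 10 members were called, all higher, where 13.4% of all genes tested were called. Beside Ces1g these were Ces2c at 1.38 ± 0.22, Ces3b at 0.68 ± 0.11, Ces3a at 0.62 ± 0.14 and Ces2a at 0.40 ± 0.12 (limma, adjusted p = 0.000345, 0.000361, 0.00496 and 0.0353). Depth averaged 0.786 in GF_JAX and 1.32 in JAX livers relative to JAX replicate 1, and with depth as a term Ces2c and Ces3b stayed called and the others did not. Ces2a did not pass without JAX replicate 2, 3 or 4 or GF_JAX replicate 3 or 5 (limma, adjusted p = 0.123, 0.0715, 0.0786, 0.0813 and 0.0856). In GF_TAC minus TAC, 2 of 10 members were called, both higher, where 23.8% of all genes tested were called. These were Ces1g and Ces2c, and Ces2c was at 0.74 ± 0.22 (limma, adjusted p = 0.0187), a call lost without TAC replicate 1 (limma, adjusted p = 0.0603; 0.00192 to 0.330 over all alternatives). Ces2e was at 0.05 ± 0.08 in both comparisons.

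Neither the comparison of vendors nor that of donors called a member. In TAC minus JAX livers, where 0.294% of all genes tested were called, 0 of 10 members passed with limma. An unadjusted p under 0.05 was held by 1 of 10, beside 1102 of all 12264 genes tested (limma). In GF_TAC minus GF_JAX, where 0.171% were called, 0 of 10 passed with limma. Here 2 of 10 had an unadjusted p under 0.05, beside 1635 of all 12264 genes tested (limma). The member with the unadjusted p under 0.05 in TAC minus JAX was Ces3a, at 0.30 ± 0.14 (limma, adjusted p = 0.555). In Ces2e the highest TAC library, at 118 RPKM, was below the lowest JAX library, at 121 RPKM. How many of all genes tested separate in this way was not counted. The difference of Ces2e, -0.11 ± 0.08, did not pass (limma, adjusted p = 0.766).

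The Ces3 genes, liver esterases whose physiological substrates are less well known, had Taconic minus Jackson differences of opposite sign in recipients and vendor mice. Ces3b had 194, 167, 194, 203 and 175 RPKM in GF_TAC livers, against 222, 215, 322, 235 and 249 RPKM in GF_JAX livers, and all GF_TAC libraries were below all GF_JAX libraries. In vendor livers it had 156, 198, 187 and 179 RPKM in TAC livers, against 174, 149, 143 and 149 RPKM in JAX livers, where the ranges overlapped. The difference was -0.40 ± 0.10 between donors in recipients and 0.22 ± 0.11 between vendors, neither of which passed alone (limma, adjusted p = 0.109 and 0.587). The interaction, GF_TAC minus GF_JAX less TAC minus JAX, was -0.63 ± 0.15 and passed (limma, adjusted p = 0.0388), with the mean depth of the groups at 1.12 in GF_TAC, 0.786 in GF_JAX, 0.956 in TAC and 1.32 in JAX livers relative to JAX replicate 1.

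Ces3a had 378, 367, 411, 449 and 332 RPKM in GF_TAC livers, against 453, 389, 637, 524 and 549 RPKM in GF_JAX livers. It had 373, 436, 409 and 389 RPKM in TAC livers, against 385, 286, 311 and 332 RPKM in JAX livers. The groups overlapped in both settings, and its interaction of -0.68 ± 0.19 did not pass (limma, adjusted p = 0.0741). Over its alternatives it ran from -0.77 to -0.16, where -0.16 is the value with relative depth as a term (limma, adjusted p = 0.367), and it passed without GF_JAX replicate 2 and after rescaling to a common sum (limma, adjusted p = 0.0227 and 0.0378). In the interaction 1 of 10 members was called, where 1.48% of all genes tested were called. The value of Ces3b was -0.35 with relative depth as a term (limma, adjusted p = 0.235), and the call was kept in 12 of 30 alternatives, whose adjusted p ran from 0.0199 to 0.235. It was lost without JAX replicate 2, 3 or 4, TAC replicate 2, 3 or 4, or GF_TAC replicate 1, 2, 3 or 5, with adjusted p of up to 0.0925 (limma).

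The other Ces1 genes were called in none of the comparisons above. Ces1d, a triacylglycerol hydrolase that supplies lipid for very low density lipoproteins, had group means of 339 ± 31.5 RPKM in GF_TAC, 375 ± 67.8 in GF_JAX, 316 ± 46.5 in GF, 323 ± 29.3 in TAC and 359 ± 56.6 RPKM in JAX livers (SD). Ces1c had means of 489 ± 54.2, 604 ± 116, 520 ± 123, 500 ± 55.6 and 431 ± 80.3 RPKM in the same groups (SD), and its order of groups follows that of depth from low to high except for GF and TAC livers. Ces1f, a further triacylglycerol hydrolase, had group means between 221 and 265 RPKM, and Ces1e between 131 and 142 RPKM. Under other settings some passed. In GF minus JAX, Ces1d and Ces1e were lower after rescaling to a common sum, at -0.40 and -0.32 (limma, adjusted p = 0.0267 and 0.0237). That scaling moved the median of all genes to -0.17 in this comparison. In GF_JAX minus JAX, Ces1c was higher without GF_JAX replicate 2 or without JAX replicate 1, at 0.61 and 0.59 (limma, adjusted p = 0.0137 and 0.0402), and Ces1f without GF_JAX replicate 2, at 0.32 (limma, adjusted p = 0.0347). In GF_TAC minus TAC, Ces1f was higher with depth as a term, at 0.22 (limma, adjusted p = 0.0463), and Ces1d with type and depth as terms, at 0.55 (limma, adjusted p = 0.0337).

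Summed over the 10 members, the mean level was 2420 ± 209 RPKM in GF_TAC, 2824 ± 388 in GF_JAX, 2320 ± 303 in GF, 2286 ± 104 in TAC and 2149 ± 250 RPKM in JAX livers (SD). The Ces2 share of that sum was lowest in GF livers. Ces2 members made up 19.6 ± 0.847% of it in GF_TAC, 18.9 ± 0.940% in GF_JAX and 16.0 ± 1.12% in GF livers, against 18.4 ± 0.895% in TAC and 19.2 ± 0.792% in JAX livers (SD). Ces1g alone made up 6.59 ± 0.522% in GF_TAC, 5.27 ± 0.668% in GF_JAX and 6.85 ± 0.863% in GF livers, against 4.33 ± 0.393% in TAC and 4.76 ± 0.394% in JAX livers (SD). These shares carry no test.

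**Figure D4:**
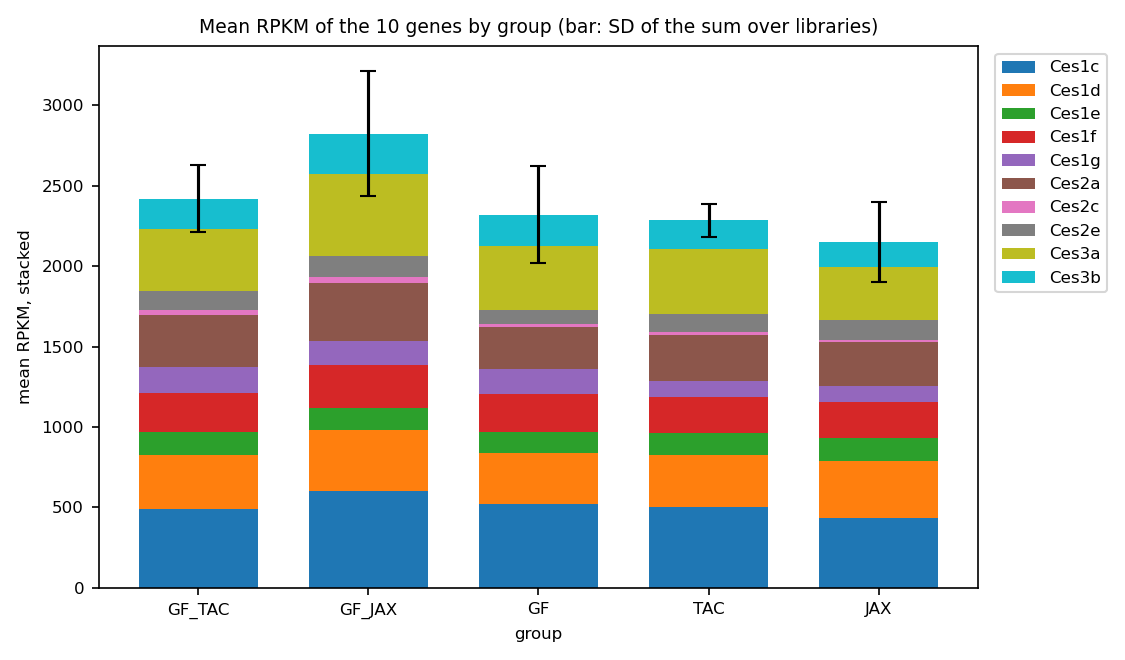
Mean RPKM of the 10 genes stacked by group (vertical axis from 0), with the SD of the sum over libraries as a black bar. GF_JAX livers had the highest sum, 2824 RPKM, and the ranges of the library sums overlap between all 5 groups.

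Of 10 other carboxylesterase genes, 9 were found in the table and 3 passed the filter; Ces1h was not analysed here. Ces1b, the closest copy of Ces1c with 90.8% of coding bases shared, averaged 75.5 RPKM over the libraries, Ces2g 23.5 RPKM and Ces4a 2.05 RPKM. Ces2f and Ces5a were listed at 0 in every library, and Ces1a, Ces2b, Ces2h and the pseudogene Ces2d-ps stayed below 3 RPKM in each library. Ces2b shares 92.1% of aligned coding bases with Ces2c and was at most 2.81 RPKM, in GF_JAX replicate 3, the library with the highest Ces2c. Ces1b and Ces2g were called in 1 comparison, GF_TAC minus TAC, higher by 0.29 ± 0.09 and 0.35 ± 0.13 (limma, adjusted p = 0.0287 and 0.0482).

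Many carboxylesterase genes are known targets of the xenobiotic receptors CAR and PXR, and other targets of these receptors were examined in the same livers. Of 25 tested targets, 13 were higher and 0 lower in GF than in JAX livers, and 10 were higher and 0 lower in GF than in TAC livers, beside the 24.0% and 24.3% of all genes called in either direction. Of these targets 0 were called by limma in GF_JAX minus GF or GF_TAC minus GF, where 0.612% and 0.204% of all genes tested were called. With so few genes called, 0 of 25 is near the background. An unadjusted p under 0.05 was held by 8 and 3 of the 25, beside 1945 and 1041 of all 12264 genes tested (limma). The median difference over the list was 0.42 in GF minus JAX and 0.23 in GF minus TAC, beside 0.01 and 0.02 over all genes tested. Cyp2b10, a cytochrome P450 that is the usual readout of CAR, had 234 ± 82.8 RPKM in GF livers and 13.5 ± 9.07 RPKM in TAC livers (SD), a difference of 4.33 ± 0.60 (limma, adjusted p = 0.000278). Cyp2c29, also a target of CAR, had 590 ± 144 RPKM in GF livers and 214 ± 22.04 RPKM in JAX livers (SD), a difference of 1.44 ± 0.18 (limma, adjusted p = 3.24e-05). Of the 25 targets, 6 had a negative difference in each of the 2 comparisons. Among the members, Ces1g was called higher and Ces2e lower in GF than in both vendors' livers, and Ces3b was called higher against JAX livers. Whether CAR or PXR acts on the members in these livers was not tested. Library type coincides with the group in both comparisons.

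Of 14 receptors and factors known to act on carboxylesterase genes, 2 were higher and 2 lower in GF than in JAX livers, and 0 were higher and 3 lower in GF than in TAC livers, beside 24.0% and 24.3% of all genes called, so these counts are near the background. Hnf4a, a factor that maintains hepatocyte genes, had 179 ± 21.3 RPKM in GF livers and 264 ± 13.9 RPKM in TAC livers (SD), a difference of -0.56 ± 0.13 (limma, adjusted p = 0.00544). Ppara, the fatty acid receptor of fasting liver, had 47.4 ± 6.51 RPKM in GF livers and 68.9 ± 6.95 RPKM in JAX livers (SD), a difference of -0.54 ± 0.18 (limma, adjusted p = 0.0381). Nr1i2, the gene of PXR, was higher in GF_JAX than in JAX livers, with 80.6 ± 6.73 RPKM and 64.6 ± 6.62 RPKM (SD) and a difference of 0.32 ± 0.10 (limma, adjusted p = 0.0423). In GF_JAX minus GF and GF_TAC minus GF limma called 0 of the 14, where 0.612% and 0.204% of all genes tested were called. With so few genes called, 0 of 14 is near the background. An unadjusted p under 0.05 was held by 4 and 2 of the 14, beside 1945 and 1041 of all 12264 genes tested (limma).

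Of 14 other ester-hydrolysing liver enzymes, 3 were higher and 6 lower in GF than in JAX livers, and 2 were higher and 4 lower in GF than in TAC livers, beside 24.0% and 24.3% of all genes called. Lipa, the lysosomal acid lipase, had 95.2 ± 5.42 RPKM in GF livers and 146 ± 4.70 RPKM in JAX livers (SD), a difference of -0.61 ± 0.11 (limma, adjusted p = 0.000837). Nceh1, a neutral cholesteryl ester hydrolase, had 12.5 ± 1.66 RPKM in GF livers and 23.6 ± 2.74 RPKM in JAX livers (SD), a difference of -0.87 ± 0.16 (limma, adjusted p = 0.000926). In GF_JAX minus GF and in GF_TAC minus GF limma called 0 of the 14, where 0.612% and 0.204% of all genes tested were called. An unadjusted p under 0.05 was held by 1 of the 14 in each, beside 1945 and 1041 of all 12264 genes tested (limma). Of the KDEL receptors, 2 of 3 were tested, and Kdelr2 was higher by 0.41 ± 0.11 in GF than in JAX livers (limma, adjusted p = 0.0129).

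For the member of each branch with the widest range of group means, the genes with the most similar levels over the 22 libraries were listed as a description. For Ces1g these were Gstm6, Sc5d and Car8, with Pearson r of 0.910, 0.899 and 0.899. For Ces2c they were Tie1, Ikbke and Slc7a8, with r of 0.866, 0.814 and 0.803. For Ces3b they were Selenbp2, Hibadh and Otc, with r of 0.907, 0.894 and 0.892. The libraries share their depth and type with every gene, and such values are the highest of 12251 genes compared.

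The 3 Ces2 members had higher mean levels in both recipient groups than in GF livers, though Ces2a did not pass, and their promoter windows from RefSeq are shown to compare their letters. A window runs from 250 bases before to 50 bases after the start site. The windows are given on the coding strand in build GRCm38.p6, with a run of 7 letters that all 3 share, GAACTTT, in capitals.
Ces2a, chr8:104733753-104734052: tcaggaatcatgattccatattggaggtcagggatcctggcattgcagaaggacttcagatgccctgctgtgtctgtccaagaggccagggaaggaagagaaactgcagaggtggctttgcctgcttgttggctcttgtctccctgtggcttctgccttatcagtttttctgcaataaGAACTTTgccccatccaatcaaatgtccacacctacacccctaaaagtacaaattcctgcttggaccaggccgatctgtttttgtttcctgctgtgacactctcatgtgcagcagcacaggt
Ces2c, chr8:104846818-104847117: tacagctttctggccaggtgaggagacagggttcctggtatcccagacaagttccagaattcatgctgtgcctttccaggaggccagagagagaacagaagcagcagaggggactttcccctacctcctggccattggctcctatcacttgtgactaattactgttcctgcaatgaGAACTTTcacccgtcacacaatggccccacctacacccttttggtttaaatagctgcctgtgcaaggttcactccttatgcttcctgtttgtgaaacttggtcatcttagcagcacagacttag
Ces2e, chr8:104926010-104926309: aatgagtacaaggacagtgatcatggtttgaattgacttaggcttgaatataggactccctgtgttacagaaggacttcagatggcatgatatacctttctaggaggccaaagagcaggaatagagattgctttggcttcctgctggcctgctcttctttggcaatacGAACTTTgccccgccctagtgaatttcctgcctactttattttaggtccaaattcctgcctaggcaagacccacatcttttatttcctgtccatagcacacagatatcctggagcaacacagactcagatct
The run starts 72, 74 and 82 bases before the start site of Ces2a, Ces2c and Ces2e. It was chosen after the sequences had been seen, and on either strand it was found in these 3 of the 7 members with a window and in 3.82% of 32851 promoter windows. AGGTCA, the core letters bound by many nuclear receptors, was found in the window of Ces2a and in 16.3% of all windows, overlapping no GAACTTT run. TATAAA was found in the windows of Ces1g and Ces3b and in 13.6% of all windows. A match is a description of letters, and the Ces2 genes are close copies of each other.

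**Figure D5:**
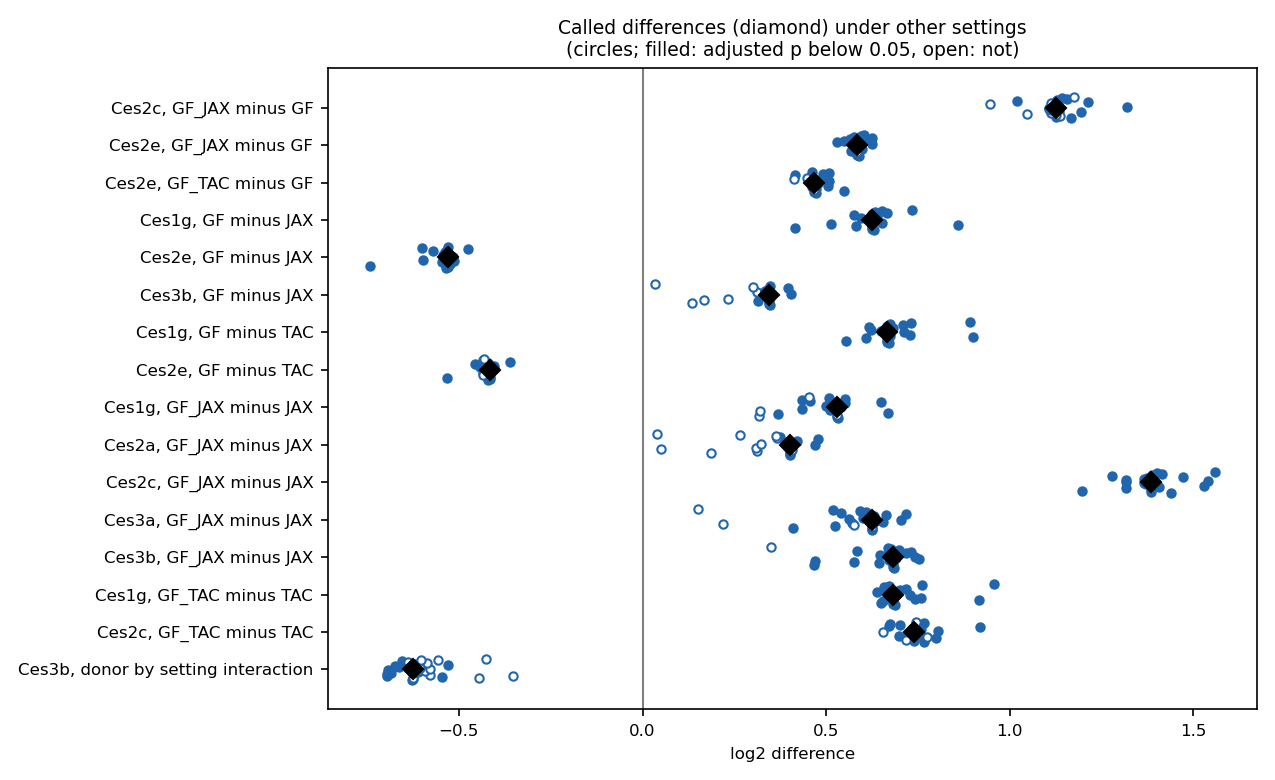
Log2 difference (horizontal axis) of every called member and comparison (rows), with the reported value as a diamond and each alternative setting as a circle, filled where the adjusted p of limma was below 0.05. Ces1g and Ces2e in GF minus JAX stay filled throughout, Ces2c in GF_JAX minus GF keeps its size with many open circles, and Ces3b in GF minus JAX reaches 0.04 at its lowest.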

How the data were processed

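Poly(A) RNA of mouse liver was sequenced, with Trizol extraction, poly(A) capture (NEBNext) and ThruPLEX libraries, per the labels' protocols. Build mm9 and the tools Bowtie 1.0.0 and Cuffdiff 2.1.1 are named, without their roles, per the submitters' processing notes. The authors deposited 1 table of RPKM by gene and library. The annotation, the counting of shared or duplicate reads and any scaling are not given in the sources used here. Of 24397 entries, 461 were empty and 27 held date numbers, and both were left out.

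RPKM are no counts, so values were analysed as log2(RPKM + 1), which understates changes of low genes. The 12264 genes that reached 1 RPKM in 4 or more libraries entered 1 linear model over all 22 libraries without covariates (limma 3.58.1, trend, R 4.3.3). Tests were two-sided, adjusted by Benjamini-Hochberg over all genes tested, at a threshold of 0.05. A gene is called where it passes. The labels do not say that libraries came from separate animals, so a p-value here reflects spread among samples that may partly be technical.

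Depth was recovered from steps of 1 read: 3131 of 3961 low genes (79.0%) held whole multiples within 0.02 reads. Whole reads were thus recovered for low genes only and no count test was run. Library type is the sign of the regression slope of gene-centred log2 RPKM against log2 length of the transcript, over 7530 genes with a mean of 5 to 300 RPKM. Transcript lengths, 50-base windows and coding sequences are from GENCODE M21, which is of another build than mm9, and no coordinate was carried over. Promoters are from RefSeq.

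Members, gene lists and tests were chosen with earlier results of these data known. Named were all members, the other carboxylesterases, up to 3 passing genes per list and comparison with the smallest p, of which a part is printed, and Alb, Apoa1 and Apoe as reference for depth. The fit was tested on simulated data with known changes. Alternatives were a pseudocount of 0.1, no filter, rescaling to a common sum (TPM, from the deposited RPKM), only the groups compared, library quality weights, library type or relative depth as a term, a correction for shared start positions, leaving out GF_JAX replicates 1 and 4, a replicate block and leaving out each library. Chosen after seeing the data were type and depth together, the correction with unique windows, and both comparisons of recipients with vendor mice. Replicate numbers were not used to pair samples in the main fit, and whether they do pair them is not settled. Python 3.11.15 with pandas 2.3.3, numpy 2.4.6, scipy 1.17.1, Biopython 1.88 and matplotlib 3.10.9 made tables and figures.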

Additional observations from a re-analysis of the deposited data

Results flagged for a closer look

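For Ces3b the difference between donors in recipients and that between vendors differed by a test of the interaction itself. The interaction was -0.63 on the log2 scale (limma, adjusted p = 0.0388), with -0.40 for GF_TAC minus GF_JAX and 0.22 for TAC minus JAX. All 5 GF_TAC libraries were below all 5 GF_JAX libraries, while the TAC and JAX libraries overlapped. Ces3a, its closest copy, had -0.68 (limma, adjusted p = 0.0741), which ran from -0.77 to -0.16 over its alternatives and was -0.16 with depth as a term. Relative depth moved with the same contrast, and with depth as a term the value of Ces3b was -0.35 (limma, adjusted p = 0.235). The part played by reads shared between both genes was not tested. In none of the 50 combinations of member and group did a single library lie apart from the others by Dixon's test.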

How the results depend on the processing

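Numbers here are members called of 10, by limma. GF_JAX minus GF had 2; quality weights, library type, type with depth, leaving out GF_JAX 1 and 4, and the replicate block gave 1 each, and only the groups compared gave 0, while depth and both corrections gave 3 (Ces2a added) and TPM 2 (Ces2a in place of Ces2c). GF_TAC minus GF had 1; TPM, depth, type with depth, and the correction with unique windows gave 2 each, and only the groups compared 0. GF minus JAX had 3, and TPM gave 5 (Ces1d, Ces1e and Ces2a added as lower, Ces3b lost). That scaling moves the median gene to -0.17, and relative to it Ces1g was at 0.59, Ces2e at -0.57 and Ces3b at 0.31. Library type, alone or with depth, and the replicate block gave 2 each (Ces3b lost). Depth gave 3, with Ces2a lower in place of Ces3b, at -0.24 (limma, adjusted p = 0.0195). GF minus TAC had 2. Library type, alone or with depth, gave 1 (Ces2e lost), and TPM gave 3, with Ces2a added as lower at -0.25 (limma, adjusted p = 0.0361). GF_JAX minus JAX had 5. Quality weights and both corrections gave 4, TPM and library type 3, only the groups compared and depth 2, and type with depth 1. GF_TAC minus TAC had 2. TPM and library type gave 1, the correction with unique windows 3 (Ces2a added) and depth 4. Type with depth gave 2, with Ces1d in place of Ces2c. The interaction had 1; no filter, only the groups compared, depth, both corrections, type with depth, and the replicate block gave 0, and TPM 1 (Ces3a in place of Ces3b). TAC minus JAX and GF_TAC minus GF_JAX stayed at 0 throughout. Leaving out 1 library gave 1 to 3 for GF_JAX minus GF, 0 to 1 for GF_TAC minus GF, 2 to 3 for GF minus JAX, 2 for GF minus TAC, 4 to 7 for GF_JAX minus JAX, 1 to 2 for GF_TAC minus TAC and 0 to 2 for the interaction; the interaction fell to 0 without JAX 2, 3 or 4, TAC 2, 3 or 4, or GF_TAC 1, 2, 3 or 5. The cause was not tested. With the replicate block, Ces2c in GF_JAX minus GF (limma, adjusted p = 0.0619), Ces3b in GF minus JAX (0.0519) and Ces3b in the interaction (0.0681) did not pass. Same-numbered libraries correlated at -0.12 to 0.15. In TAC minus JAX and in GF_TAC minus GF, 3 of 4 libraries were most like the one of their own number. In each other comparison at most 1 was. No called value changed sign. Ces1g and Ces2e in GF minus JAX and Ces1g in GF minus TAC and GF_TAC minus TAC passed under every alternative, as did Ces2c in GF_JAX minus JAX. Ces2c rests on about 33 to 223 reads per library, the fewest of the members, and 42.2% of its windows are shared.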
